A study of Mus musculus with 12 samples.

Results

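The data described here are the 6 untreated arrays of a study with 12 arrays of C2C12 myotubes, the multinucleated muscle cells that a mouse myoblast line forms in culture. The arrays were chosen by their titles, which mark untreated samples with the letter C. All cultures had been differentiated for 3 days. One experiment gave untreated cultures beside cultures with mouse leukemia inhibitory factor (LIF) at 10 ng/ml, and the other gave untreated cultures beside cultures with medium conditioned by C26 mouse colon carcinoma cells (C26CM). Each experiment has 1 untreated array at 4 h, 1 at 8 h and 1 at 24 h, so that the 6 arrays form 3 groups of 2, with the experiments as the repeats. Each array holds RNA pooled from 3 wells, so the spread between wells cannot be seen. The labels give no agent for these cultures, and whether they were fed or handled at time 0 is not given in the sources used here.

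Myotubes arise when myoblasts leave the cell cycle, fuse and switch on the genes of the contractile apparatus. Maturation goes on after fusion: embryonic forms of contractile proteins are joined by adult forms, the calcium stores and the membrane systems that release them are built, and acetylcholine receptors cluster on the surface. A culture also keeps mononucleated cells that have not fused and can still divide. Cultured cells further follow serum factors in the medium, the sterol content of the medium and a circadian clock, so untreated cultures sampled over a day are not a fixed state.

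The question taken from the labels is how untreated cultures at 24 h differ from other untreated cultures of the same experiment at 4 h and 8 h. Each time point is a separate sample, so differences between cultures are part of a shift. The arrays gave log2 values for 21187 genes, with medians of 6.0, 6.0 and 5.5 at 4, 8 and 24 h in the LIF experiment and of 6.71, 6.74 and 6.14 in the C26CM experiment. The 24 h arrays thus lie on another scale than the earlier ones, in both experiments; what set that scale is not given in the sources used here, and it cannot be told apart from time. Levels were therefore compared as percentile ranks within an array, where 0 is the dimmest gene and 100 the brightest, and the 24 h shift of a gene is its rank at 24 h minus its mean rank at 4 h and 8 h of that experiment. Ranks compress differences near 100, so shifts of bright genes are also given as log2 differences after quantile normalization of the arrays. On the 6 arrays, 61.8% to 69.7% of genes exceeded the background range, which is set by 1288 olfactory and vomeronasal receptor genes.

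Ranks moved more between the early arrays and 24 h than between 4 h and 8 h. The median absolute 24 h shift over genes was 2.32 points in the LIF experiment and 2.28 points in the C26CM experiment, against 0.98 and 0.81 points for 8 h minus 4 h. A 24 h shift of 10 points or more, either way, was seen in 779 and 594 genes, against 79 and 17 genes for 8 h minus 4 h. Across genes the Spearman correlation of the ranks was 0.997 and 0.999 between 4 h and 8 h, 0.988 and 0.989 between 4 h and 24 h, and between 0.966 and 0.976 for arrays of different experiments.

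Most of this movement was not shared. The shifts of the 2 experiments correlated across genes with a Pearson r of 0.13, or 0.22 over the 12635 genes above background on all 6 arrays, and 55.0% of the genes had the same sign in both. Shifts of at least 10 points in the same direction in both experiments were found for 7 genes upward (0.033% of the genes measured) and 38 downward (0.179%), and 13 genes moved by as much in opposite directions. At 5 points the counts were 333 upward (1.57%), 436 downward (2.06%) and 458 opposite. The same rule at 10 points gave 0 genes upward (0%) and 1 downward (0.00472%) for 8 h minus 4 h. With limma, in a fit with the experiment as a block and 4 h and 8 h as repeats of an early state, 0 of 21187 genes (0%) passed a Benjamini-Hochberg adjusted p of 0.05 in either direction. The smallest adjusted p in that fit was 0.0511, shared by 241 genes, while 5113 genes (24.1%) had an unadjusted p under 0.05 where chance gives 1059. At an adjusted p of 0.10, 930 genes were higher (4.39%) and 876 lower (4.13%) at 24 h. The 1288 receptor genes passed this limit at 6.52% (84 of 1288), so it holds genes with no signal above background too. The fit has 3 residual degrees of freedom. Of these, 2 are the 8 h minus 4 h differences and 1 is the disagreement between the experiments. The p values and the SE thus set a shift against both, and the disagreement can be the larger part. For the gene Car9, 8 h minus 4 h was -0.8 and -2.1 points in the LIF and C26CM experiments. Its 24 h shifts were -3.5 and 18.1 points, and the limma SE was 4.7. On quantile-normalized log2 values limma called 120 genes higher (0.566%) and 168 lower (0.793%) at 0.05. The differences below are given as values, since none passed at 0.05 on ranks.

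**Figure D1:**
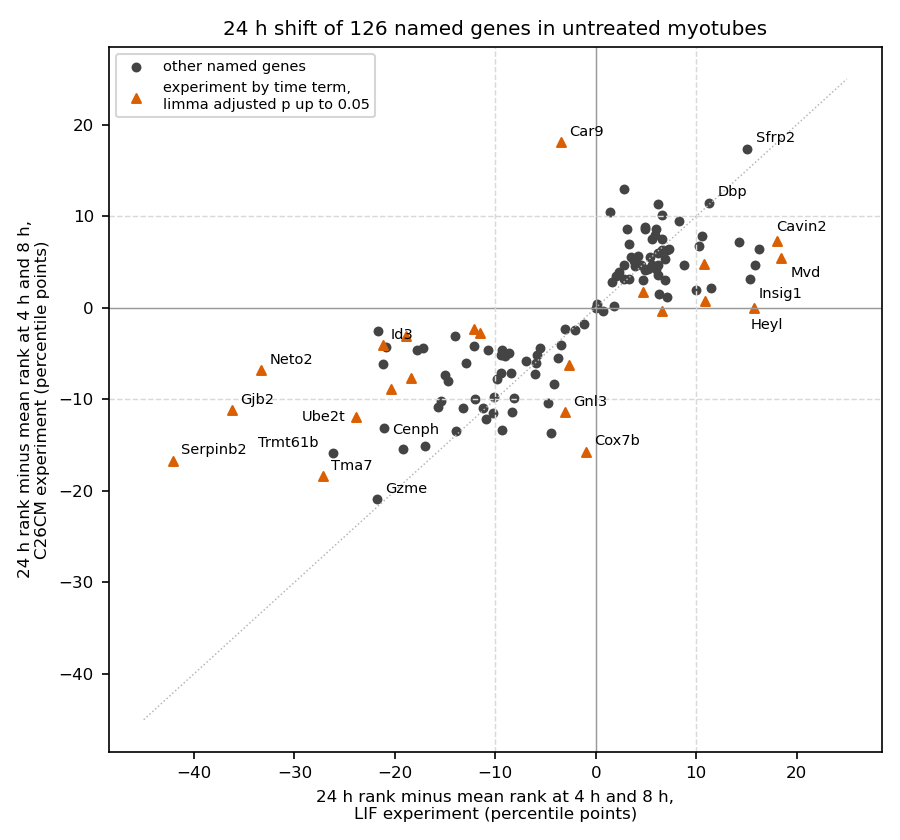
Shift at 24 h of the 126 genes named in the text, LIF experiment on the horizontal axis and C26CM experiment on the vertical axis, in percentile points; 1 point per gene. Dashed lines mark 10 points, the dotted line marks equal shifts, and triangles are genes called by limma's experiment by time term, which rests on 1 24 h array per experiment. Many of the genes were picked for a large or shared shift, so the cloud is not that of all genes, whose r is 0.13; Sfrp2 and Dbp lie beyond 10 points in both experiments, and Serpinb2 and Gjb2 lie far lower in the LIF experiment.

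Sfrp2, which encodes a secreted frizzled-related protein that binds Wnt ligands, had the largest shared shift upward. Its percentile rank was 48.7 at 4 h, 48.2 at 8 h and 63.5 at 24 h in the LIF experiment, and 47.5, 50.6 and 66.5 in the C26CM experiment. Both 24 h arrays lay above all 4 early arrays. The mean shift was 16.3 ± 1.5 points (limma SE, 6 arrays; limma adjusted p 0.0511), or 1.34 and 1.52 on the log2 scale after quantile normalization, where the limma adjusted p was 0.0331. Dbp, a transcription factor driven by the circadian clock, was the only other gene above background on all 6 arrays among the 7. It stood at rank 55.5, 60.6 and 69.3 in the LIF experiment and at 60.5, 61.7 and 72.6 in the C26CM experiment, with shifts of 11.3 and 11.5 points (limma adjusted p 0.0519). Of the other 5 genes, 4 lay in the background range on all 6 arrays and 1 on some of them, and they are not named.

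Further genes that were higher at 24 h come from the 15 with the smallest p, after genes in the background range on all 6 arrays were left out. They include receptors and adaptors of growth signalling. Fgfr4, a receptor for fibroblast growth factors that muscle precursor cells carry, stood at 64.3, 64.6 and 75.1 in the LIF experiment and at 69.4, 70.5 and 77.8 in the C26CM experiment. Irs1, the adaptor that links the insulin and IGF receptors to phosphoinositide 3-kinase, stood at 90.5, 89.7 and 94.0, and at 89.9, 89.7 and 94.3. Fzd7, a Wnt receptor, had shifts of 5.6 and 4.7 points. In each of these genes the 24 h rank lay above both early ranks of its experiment. Metabolic genes of this group were Pgam2, the muscle form of phosphoglycerate mutase, with shifts of 5.6 and 7.5 points, Coq8a, needed for coenzyme Q synthesis, with 7.1 and 6.3, Srebf1, the sterol and fatty acid regulator, with 6.6 and 6.3, and Slc8b1, the mitochondrial sodium calcium exchanger, with 10.3 and 6.8. Map1lc3a, an LC3 protein of the autophagosome membrane, had shifts of 6.2 and 4.7 points and the chloride channel family gene Clic3 8.3 and 9.5. For these 9 genes the limma adjusted p was 0.0511, and both treated series of arrays shifted upward as well.

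On the log2 scale, Cavin2, which codes for a coat protein of caveolae, was higher by 1.35 and 0.66, the R-spondin receptor Lgr5 by 1.47 and 0.50 and the iron exporter Slc40a1, with a background value on 1 array, by 1.12 and 0.67. For all of these the shift in the LIF experiment was the larger one. Lgr5 also differed in level, at ranks 40.6, 42.8 and 58.0 in the LIF experiment against 60.0, 65.6 and 69.2 in the C26CM experiment.

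**Figure D2:**
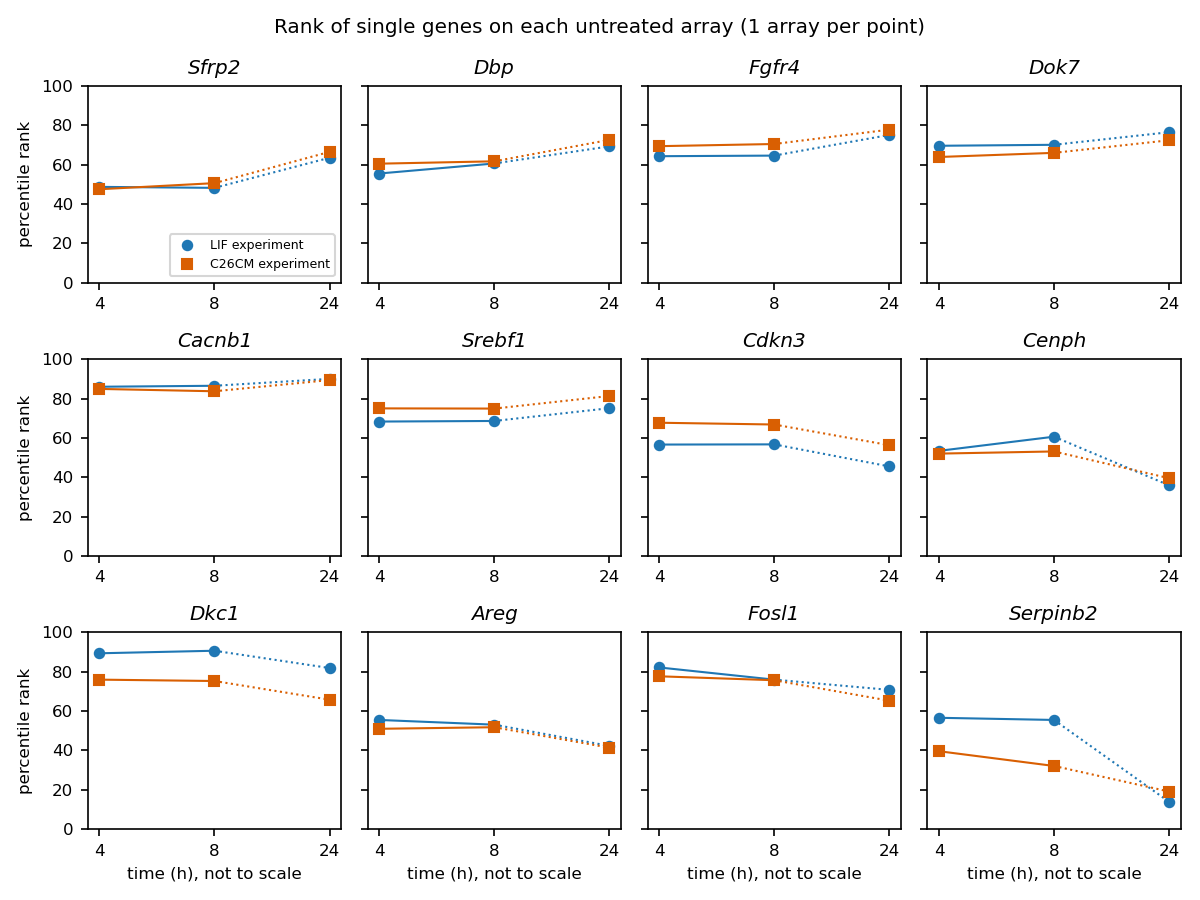
Percentile rank on each untreated array at 4, 8 and 24 h for 12 genes, circles for the LIF experiment and squares for the C26CM experiment; each point is 1 array and has no error bar. Dotted segments lead to the 24 h arrays, which lie on another scale of deposited values. In the 6 genes from Sfrp2 to Srebf1 the 24 h rank is above both early ranks in both experiments, and in the 6 from Cdkn3 to Serpinb2 it is below both.

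The downward shifts were larger. Serpinb2, an inhibitor of the urokinase plasminogen activator, stood at rank 56.6, 55.5 and 13.9 in the LIF experiment and at 39.6, 32.1 and 19.1 in the C26CM experiment. Gjb2, which encodes the gap junction protein connexin 26, stood at 66.9, 58.0 and 26.3, and at 49.6, 47.3 and 37.3. Both genes were lower at 24 h in each experiment, with shifts of -42.1 and -16.7 points for Serpinb2 (limma adjusted p 0.0715) and of -36.2 and -11.2 points for Gjb2 (0.0966). Serpinb2 lay in the background range on both 24 h arrays and Gjb2 on 1, so the sizes are uncertain. Of the 38 genes lower by 10 points in both experiments, 7 lay in the background range on all 6 arrays, 25 on 1 to 5 arrays, and 6 above it on all arrays.

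Several of the 38 serve chromosomes and cell division. Cdkn3, a phosphatase of cyclin-dependent kinases, stood at 56.6, 56.7 and 45.5 in the LIF experiment and at 67.7, 66.8 and 56.3 in the C26CM experiment, a mean shift of -11.0 ± 1.1 points (limma SE, 6 arrays; limma adjusted p 0.0511). It was above background on all 6 arrays. The centromere protein genes Cenph and Cenpw had shifts of -21.1 and -13.1 points and of -15.4 and -10.2 points. Ube2t, a ubiquitin-conjugating enzyme of the Fanconi anaemia repair pathway, had -23.9 and -11.9, and Palb2, the partner of Brca2 in recombination, -13.9 and -13.5. These 4 had background values on 1 or 2 arrays. Ddias, a suppressor of apoptosis after DNA damage, was not among the 38 but was lower by 1.83 and 0.85 on the log2 scale.

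Others among the 38 are secreted or signalling proteins. Il7, a lymphocyte growth cytokine, had shifts of -19.2 and -15.4 points, and Fgl2, a fibrinogen-like protein, -17.0 and -15.1. Sfrp4, a relative of Sfrp2, moved opposite to it, at 44.8, 44.2 and 34.3 in the LIF experiment and 39.3, 41.7 and 29.0 in the C26CM experiment. Map2k6, a kinase that activates p38, had -15.7 and -10.8 points and the neurofilament gene Nefm -13.2 and -11.0. Larger shifts were seen for the translation-related gene Tma7 with -27.2 and -18.4 and the tRNA methyltransferase gene Trmt61b with -26.2 and -15.9. Gzme, a granzyme protease gene, had -21.8 and -20.9, and is uncertain because close paralogs may share its probes. Zcchc10 had -10.9 and -12.1. Of these 9 genes, Zcchc10 alone lay above the background range on all arrays. At the edge of the 10 point rule, Sfrp4 was just inside with -10.21 and -11.49 points, and Areg just outside with -11.97 and -9.99.

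The gene lists that stood lowest at 24 h were those of cell division and of ribosome production. Over all genes, 22.4% stood above both early ranks at 24 h in both experiments and 19.4% stood below. Of 45 measured DNA replication genes 30 (66.7%) stood below and 0 above, and of 43 mitosis genes 28 (65.1%) stood below and 0 above. At an adjusted p of 0.10, limma called 4 of the replication genes and 6 of the mitosis genes lower, and 0 of either list at 0.05. The limit of 0.10 called 4.13% of all genes lower, and 6.52% of the receptor genes in either direction. The median log2 shift of the replication list was -0.74 in the LIF experiment and -0.21 in the C26CM experiment, and that of the mitosis list was -0.48 and -0.30, where the median over all genes was 0.01 in each. In these pooled cultures, fewer dividing cells and less RNA per cell cannot be told apart.

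Mcm6, a subunit of the replicative helicase, stood at rank 84.8, 92.4 and 73.6 in the LIF experiment and at 76.7, 77.6 and 69.8 in the C26CM experiment. Orc1, of the origin recognition complex, had shifts of -18.4 and -7.7 points, and Gins1, which joins the helicase, -20.9 and -4.3. Ccne2, a cyclin of S phase entry, had -21.7 points in the LIF experiment and -2.5 in the C26CM experiment. Dtl, which targets replication factors for degradation, had -18.9 and -3.1. The mitotic kinase gene Cdk1 stood at 71.1, 77.3 and 64.9, and at 95.7, 95.7 and 91.1. Nusap1, a spindle protein gene, had -4.5 and -13.7. Incenp and Cdca8, of the chromosomal passenger complex, had -8.4 and -7.1 points and -9.4 and -5.2 points, Kif4, a chromosome-bound kinesin, -14.0 and -3.1, and the kinetochore gene Ndc80 -8.6 and -4.9. Gins1 and Orc1 had a background value on 1 array each. For each named member the 24 h rank lay below both early ranks in both experiments.

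The early arrays themselves differed in these lists in 1 experiment. In the LIF experiment, 43 of 45 replication genes and 41 of 43 mitosis genes were higher at 8 h than at 4 h, with median log2 differences of 0.64 and 0.40. The LIF-treated arrays showed 0.33 and 0.22 for 8 h minus 4 h, and the untreated C26CM arrays 0.01 and -0.02. Against the 4 h array alone, the 24 h medians were -0.43 and -0.20 for replication genes and -0.34 and -0.27 for mitosis genes. The direction therefore does not rest on the 8 h array, but the size in the LIF experiment does in part.

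Promoters of 5 members are shown for sequence elements known from cell cycle genes, which part of each list holds. In RefSeq promoters of build GRCm38.p6, from 250 bases before to 50 bases after the start, available for 15951 genes of the arrays, the letters TTTGAA, the cell cycle homology region, were found on either strand in 27 of 35 mitosis promoters (77.1%) and in 15.3% of all promoters. CCAAT was found in 77.1% of the mitosis and 62.2% of the replication promoters, against 38.5% of all. CCAAT was as frequent in lists with other roles, at 91.3% for endoplasmic reticulum chaperones, 82.4% for cholesterol synthesis and 70.6% for clock genes. TTTGGCGC, an E2F site, was found in 8 of 37 replication promoters (21.6%) against 0.733% of all. The cell cycle homology region was found in 13.5% of the replication promoters and the E2F letters in 0 of 35 mitosis promoters. TTTGAA and TTTGGCGC begin with the same letters and cannot match at the same place, while CCAAT can share an end letter with either. A match is a description of the sequence only. Stretches from 130 bases before to 25 bases after the start follow, read on the gene's strand, with the E2F letters in capitals for Mcm6, chr1:128359681-128359835 (minus strand), and Dtl, chr1:191575520-191575674 (minus strand), and TTTGAA in capitals for Cdk1, chr10:69352888-69353042 (minus strand), Cdca8, chr4:124936893-124937047 (minus strand), and Kif4, chrX:100625935-100626089 (plus strand).
Mcm6: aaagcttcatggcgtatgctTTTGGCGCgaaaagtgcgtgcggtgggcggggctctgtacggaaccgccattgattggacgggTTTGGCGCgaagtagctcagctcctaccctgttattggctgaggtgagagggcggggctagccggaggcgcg
Dtl: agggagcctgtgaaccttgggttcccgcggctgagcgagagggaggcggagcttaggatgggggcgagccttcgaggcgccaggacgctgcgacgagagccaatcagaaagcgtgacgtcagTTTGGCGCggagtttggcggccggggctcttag
Cdk1: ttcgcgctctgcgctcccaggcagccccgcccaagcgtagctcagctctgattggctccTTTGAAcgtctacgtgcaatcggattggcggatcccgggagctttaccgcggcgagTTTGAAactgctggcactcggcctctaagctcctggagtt
Cdca8: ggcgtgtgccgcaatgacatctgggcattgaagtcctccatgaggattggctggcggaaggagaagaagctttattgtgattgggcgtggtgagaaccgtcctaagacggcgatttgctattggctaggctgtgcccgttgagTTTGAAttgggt
Kif4: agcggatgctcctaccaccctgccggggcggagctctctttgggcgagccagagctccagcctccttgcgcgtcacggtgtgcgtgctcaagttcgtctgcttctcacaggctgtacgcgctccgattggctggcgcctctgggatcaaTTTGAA
Mcm6 holds 2 E2F matches, which begin 110 and 47 bases before the start, and Dtl holds 1, which begins 8 bases before it. Cdk1 holds 2 matches of the cell cycle homology region, which begin 71 and 15 bases before the start, while in Cdca8 and Kif4 the match lies just after it.

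Ribosome biogenesis had the largest share of members below their early ranks. Of 35 genes 27 (77.1%) stood below at 24 h in both experiments and 1 above. Limma called 13 of them lower at an adjusted p of 0.10, where 4.13% of all genes were called lower. The list's median log2 shifts were -0.36 and -0.27. Dkc1, the pseudouridine synthase of the nucleolus and of telomerase RNA, stood at 89.4, 90.7 and 81.9 in the LIF experiment and at 76.0, 75.3 and 65.8 in the C26CM experiment, a mean shift of -9.0 ± 0.8 points (limma SE, 6 arrays; limma adjusted p 0.0511). Gar1, which binds the same complex, had -4.8 and -10.4 points. The nucleolar genes Gnl3 and Npm1 had -3.1 and -11.4 points and -2.7 and -6.2 points, Rrp1b -10.7 and -4.6, and the polyamine enzyme gene Srm -11.5 and -2.8. Myc, which drives many of these genes, stood at 91.4, 88.7 and 84.6, and at 86.8, 84.4 and 81.1, and lay below both early ranks in both. Taf1d, a factor of RNA polymerase I, and Pop4, a subunit of RNase P, were outside the list and had -10.1 and -9.7 points and -5.9 and -6.0 points. Cytosolic ribosomal protein genes, by contrast, had median log2 shifts of -0.09 and 0.00, with 6 of 23 (26.1%) below and 3 (13.0%) above, and their direction in the C26CM experiment turned with median centring. The difference between these lists was not tested.

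**Figure D3:**
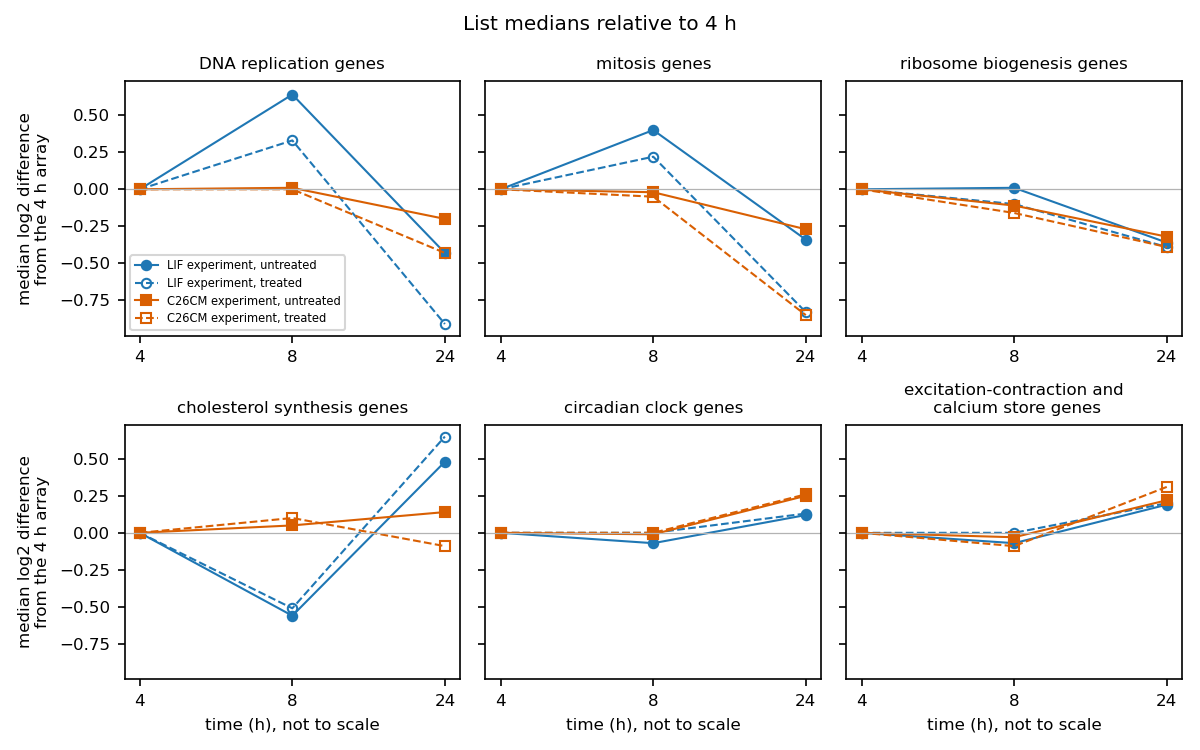
Median over a list's genes of the quantile-normalized log2 value relative to the 4 h array of the same series, at 4, 8 and 24 h, for 6 gene lists; filled symbols are untreated and open symbols treated arrays, circles the LIF and squares the C26CM experiment, with 1 array per point. The DNA replication and mitosis medians stand above 0 at 8 h in the LIF experiment and below 0 at 24 h in all series, while the cholesterol median dips at 8 h in the LIF experiment.

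Lists of the contractile apparatus, calcium stores and junction were shifted upward at 24 h, by less. Of 31 excitation-contraction and calcium store genes 19 (61.3%) stood above both early ranks in both experiments and 1 below. Limma called 7 of them higher at an adjusted p of 0.10, where 4.39% of all genes were called higher. The list's median log2 shifts were 0.22 and 0.24. Cacnb1, a subunit of the calcium channel that triggers contraction, stood at 86.0, 86.5 and 90.0 in the LIF experiment and at 84.9, 83.7 and 89.4 in the C26CM experiment (limma adjusted p 0.0511). Casq1, the calcium binding protein of the store, stood at 92.2, 93.2 and 97.4, and at 96.2, 96.5 and 98.1. The release channel gene Ryr3 had shifts of 6.0 and 4.2 points, the sodium pump regulator Fxyd1 3.3 and 7.0, the potassium channel gene Kcnj12 5.4 and 5.6 and the kinase gene Camk2a 11.5 and 2.2.

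For the acetylcholine receptor and its junction, 12 of 17 genes (70.6%) stood above and 1 below, with median log2 shifts of 0.23 and 0.18. Dok7, the activator of the receptor kinase MuSK, stood at 69.6, 70.1 and 76.5, and at 63.9, 66.0 and 72.4 (limma adjusted p 0.0511). Rapsn, which anchors the receptors, had shifts of 5.2 and 4.2 points, and Lrp4, the agrin receptor, 2.3 and 3.9. Dmd, the dystrophin gene, had shifts of 1.4 and 10.5 points. These 4 genes stood above both early ranks in both experiments.

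Adult and fast sarcomere genes stood above in 24 of 44 cases (54.5%) and below in 1, with median log2 shifts of 0.22 and 0.14. Limma called 5 of them higher at an adjusted p of 0.10, where 4.39% of all genes were called higher. This list is not of sarcomere proteins alone. It also holds Casq1, which is counted in the calcium store list too, so these lists overlap. Myom3, a protein of the M band, stood at 80.9, 79.9 and 84.6, and at 83.3, 83.4 and 89.0 (limma adjusted p 0.0511). Ldb3, of the Z disc, had shifts of 4.7 and 3.0 points, Mybpc1, the slow myosin binding protein C, 5.6 and 4.6, its fast relative Mybpc2 10.9 and 0.8, and glycogen phosphorylase, Pygm, 1.6 and 2.8. Embryonic and perinatal sarcomere genes had median log2 shifts of 0.11 and -0.07, with 4 of 14 (28.6%) above and 2 (14.3%) below, and no shared direction. Among them, Myh8, the perinatal myosin, had 6.6 and -0.4 points, and Myh3, the embryonic myosin, stood between 98.7 and 99.7 on all arrays. In myogenic factors and fusion genes 12 of 24 stood above and 1 below. Tead4, a partner of YAP in muscle, had 2.8 and 3.1 points, Six4 3.5 and 5.6 and Myf5 6.9 and 3.0. Myog, the factor that starts differentiation, had 0.7 and -0.4.

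The circadian clock list held 12 of 22 genes (54.5%) above and 2 below, with median log2 shifts of 0.17 and 0.26. Limma called 5 of them higher at an adjusted p of 0.10, where 4.39% of all genes were called higher. The clock consists of activators, Clock and Bmal1, repressors of the Per and Cry families, and output factors such as Dbp and Tef. Besides Dbp, the repressor Per3 stood at 52.3, 52.0 and 59.5 in the LIF experiment and at 56.0, 55.2 and 62.0 in the C26CM experiment. Tef stood at 64.3, 64.6 and 69.3, and at 71.0, 71.3 and 75.2. Per1 had shifts of 7.1 and 1.2 points and Per2 2.8 and 4.7. The letters CACGTG, an E-box that Clock and Bmal1 bind, stood in 5 of 17 clock promoters (29.4%) and in 8.35% of all. Lists with other roles came near this share. It was 26.1% for insulin and IGF genes, 25% for acetylcholine receptor and junction genes and 22.9% for amino acid response and tRNA synthetase genes. The match in Tef, at the first of its 2 RefSeq starts, chr15:81802543-81802697 (plus strand), begins 127 bases before the start and is in capitals.
Tef: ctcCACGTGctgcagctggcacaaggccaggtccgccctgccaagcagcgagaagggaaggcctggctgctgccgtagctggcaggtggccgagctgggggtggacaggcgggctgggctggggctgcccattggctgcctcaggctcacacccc

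Cholesterol synthesis genes had the largest median of the 34 lists in the LIF experiment, and a smaller one in the C26CM experiment. Of 25 genes 16 (64.0%) stood above both early ranks in both experiments and 0 below. Limma called 3 of them higher at an adjusted p of 0.10, where 4.39% of all genes were called higher. The list's median log2 shift was 0.89 in the LIF experiment and 0.15 in the C26CM experiment. In the LIF experiment all 25 genes were lower at 8 h than at 4 h, by a median log2 difference of -0.56, and the LIF-treated arrays showed -0.51, against 0.05 in the untreated C26CM arrays. Relative to 4 h alone, the 24 h medians were 0.48 and 0.14. Insig1, which retains the sterol sensor in the endoplasmic reticulum, stood at 87.3, 76.0 and 97.0 in the LIF experiment and at 93.0, 93.8 and 96.5 in the C26CM experiment. The enzyme genes Mvd, Lss, Fdft1 and Hmgcs1 had shifts of 18.4 and 5.4, 15.9 and 4.7, 10.0 and 2.0, and 6.3 and 1.5 points. Dhcr7, of the last step, had the larger shift in the C26CM experiment, with 4.9 and 8.6. In the arrays treated with conditioned medium the list's median log2 shift was -0.14, so the direction was not shared by all series. Of fatty acid synthesis genes, 7 of 21 (33.3%) stood above. Acss2, which makes acetyl-CoA from acetate, stood at 59.1, 54.2 and 59.5, and at 59.2, 58.3 and 71.8.

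**Figure D4:**
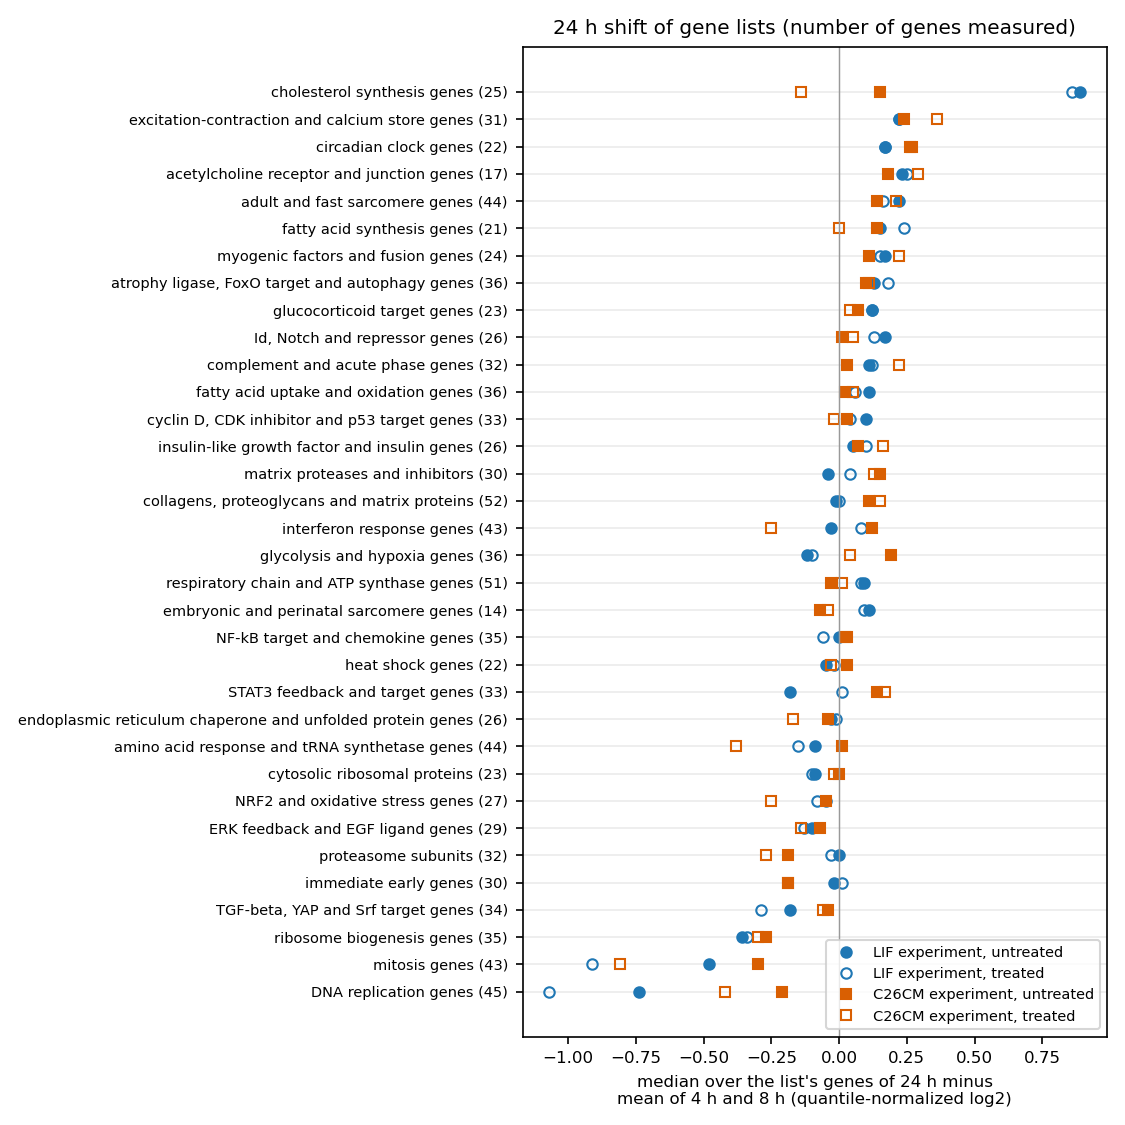
Median over the genes of each of 34 lists of the 24 h value minus the mean of 4 h and 8 h, on the quantile-normalized log2 scale; filled symbols are untreated and open symbols treated arrays, circles the LIF and squares the C26CM experiment, with the number of genes measured in brackets and no error bars. DNA replication, mitosis and ribosome biogenesis genes lie below 0 in all 4 series, and the excitation-contraction, clock, junction and adult sarcomere lists lie above 0 in all 4.

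In the lists of genes that growth factors and serum induce, more members stood below their early ranks than above, but the list medians were small. The members named here are lower ones. Areg, a ligand of the EGF receptor, stood at 55.5, 53.1 and 42.3 in the LIF experiment and at 51.0, 51.8 and 41.4 in the C26CM experiment, a mean shift of -11.0 ± 1.4 points (limma SE, 6 arrays; limma adjusted p 0.0511). The related ligand Ereg stood at 89.4, 76.0 and 64.9, and at 55.7, 53.7 and 50.1. Plaur, the urokinase receptor, had shifts of -17.2 and -4.4 points, and the interleukin-33 receptor Il1rl1, with a background value on 1 array, -21.2 and -6.1. In the list of ERK feedback genes and EGF ligands, 9 of 29 (31.0%) stood below and 5 (17.2%) above, with median log2 shifts of -0.10 and -0.07. Of 30 immediate early genes 8 (26.7%) stood below and 4 (13.3%) above, with medians of -0.02 and -0.19. Over all genes 19.4% stood below and 22.4% above, and the difference from these shares was not tested. Fosl1, an AP-1 subunit, stood at 82.2, 76.0 and 70.8, and at 77.7, 75.7 and 65.3, and Ier2 had -6.0 and -7.2 points.

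Of 34 TGF-beta, YAP and Srf target genes 13 (38.2%) stood below both early ranks in both experiments and 4 (11.8%) above, with median log2 shifts of -0.18 and -0.04. Ccn2, the connective tissue growth factor, had ranks between 96.5 and 99.5 and log2 shifts of -0.77 and -0.77. The smooth muscle genes Tagln and Cnn1 had log2 shifts of -0.55 and -0.52 and of -0.66 and -0.42, and Inhba, a subunit of activin, -0.59 and -0.35. Ptgs2, the inducible cyclooxygenase, had -0.72 and -0.47, and the chemokine gene Ccl17 -1.34 and -0.70. Each of these genes was lower at 24 h than at 4 h and 8 h in both experiments, and only lower genes are named here. The NF-kB target and chemokine list, which holds Ccl17, had no shared direction. Of its 35 genes 5 (14.3%) stood above and 5 below, where 22.4% and 19.4% of all genes did.

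Of insulin and IGF genes 11 of 26 (42.3%) stood above and 8 (30.8%) below, with median log2 shifts of 0.05 and 0.07. The list thus went both ways, and the members named here are higher ones. Igf1 stood at 59.1, 55.5 and 62.1 in the LIF experiment and at 61.3, 62.6 and 70.8 in the C26CM experiment, the IGF-II receptor Igf2r had shifts of 6.9 and 5.3 points, and the imprinted gene Mest 2.0 and 3.5. Among genes of autophagy, of FoxO action and of the ubiquitin ligases of atrophy, 14 of 36 (38.9%) stood above and 0 below, with median log2 shifts of 0.13 and 0.10. Foxo3, the factor that drives several of them, stood at 71.1, 70.1 and 75.1, and at 73.3, 73.2 and 78.0, and Sesn1, a stress-induced inhibitor of mTORC1, had 8.8 and 4.7 points. Lifr, the receptor subunit for LIF itself, stood at 84.8, 85.3 and 90.9, and at 77.5, 80.4 and 87.0 (limma adjusted p 0.0511). Of the NRF2 target genes, 9 of 27 (33.3%) stood below and 5 (18.5%) above. Gclm, for glutathione synthesis, had -6.9 and -5.8 points, and Txnrd1, thioredoxin reductase, -3.8 and -5.5, while the list's direction in the C26CM experiment turned with median centring.

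Other members of lists are given as single values. Of 23 glucocorticoid targets 9 (39.1%) stood above and 4 (17.4%) below, where 22.4% and 19.4% of all genes did. The members named here went both ways. Tsc22d3 had shifts of 6.2 and 3.6 points and Hsd11b1, which makes the active hormone, 6.2 and 6.0, while Fkbp5 had -12.1 and -4.2 and Angptl4 -9.4 and -7.1. Matrix genes went both ways as well. Of collagens, proteoglycans and matrix proteins 17 of 52 (32.7%) stood above and 8 (15.4%) below. Of matrix proteases and inhibitors 8 of 30 (26.7%) stood above and 8 below. The aggrecanase gene Adamts5 had shifts of 6.6 and 10.1 points. The laminin gene Lama4 had 6.2 and 11.3 points with background values on 5 arrays. The hyaluronan synthase gene Has1, with a background value on 1 array, had -12.9 and -6.0. The Notch ligand gene Dll1 had 6.0 and 8.6, Sox8, a factor found in satellite cells, 10.8 and 4.8, and the repressor of myogenesis Twist2 -4.2 and -8.3. In the respiratory chain, 13 of 51 genes (25.5%) stood above and 9 (17.6%) below, near the 22.4% and 19.4% of all genes. Its muscle subunit gene Cox6a2 had 3.3 and 3.2 points and cytochrome c, Cycs, -9.3 and -13.4, with background values on 3 arrays that include both 24 h arrays. The glucose transporter gene Slc2a4 had 3.1 and 8.6. Among kinases and proteases with the smallest p were Map2k4, an activator of JNK, with -5.8 and -5.2 points, and the ubiquitin hydrolase gene Uchl3 with -9.8 and -7.8.

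The 24 h shifts of the experiments were also set against each other. In a limma fit with an experiment by time term, 4101 genes passed an adjusted p of 0.05, 1942 with the higher shift in the C26CM experiment (9.17%) and 2159 with the lower (10.2%), and 3253 of them had opposite signs. This fit sets 1 24 h array of each experiment against the other, with the error from 4 h against 8 h alone, so a call does not show that the experiments differ beyond the variation between single 24 h arrays. Car9, a carbonic anhydrase induced in hypoxia, stood at 27.0, 26.2 and 23.1 in the LIF experiment and at 42.3, 40.2 and 59.3 in the C26CM experiment, but all 3 ranks of the LIF experiment lie in the background range, so the size is uncertain. Cox7b, a subunit of cytochrome oxidase, stood at 90.5, 91.6 and 90.0, and at 96.2, 95.9 and 80.3. Heyl, a Notch target, stood at 54.5, 55.5 and 70.8, and at 77.3, 79.0 and 78.1, and Id3, an inhibitor of myogenic factors, at 76.8, 76.0 and 55.2, and at 51.0, 49.4 and 46.1. Neto2, a receptor accessory protein gene with background values on 2 arrays, had shifts of -33.3 and -6.8. Prg4, which encodes lubricin, had -12.1 and -2.3. Each of these 6 genes was called in that fit.

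The treated arrays of the same experiments give a second view of time, on separate RNA but with 24 h arrays on the same other scale, so that time and scale cannot be told apart there either. Across genes the 24 h shift of treated and untreated arrays had a Pearson r of 0.82 in the LIF experiment and 0.80 in the C26CM experiment, well above the r of 0.13 between the experiments. Of the genes with a shared shift of 10 points, 7 of 7 and 36 of 38 had the same sign in both treated series, and of those with 5 points 308 of 333 (92.5%) and 401 of 436 (92.0%). Over all genes, which were not picked, 30.1% were higher and 25.8% lower in both treated series. The picked genes were chosen by untreated shifts, which correlate with the treated shifts of the same experiment. Their shared signs therefore add little to that correlation. Limma called 256 genes higher (1.21%) and 316 lower (1.49%) at an adjusted p of 0.05 in the same contrast over the treated arrays. Sfrp2 had treated shifts of 17.5 and 22.7 points, Fgfr4 14.7 and 16.1, and Cdkn3 -17.3 and -19.7. The mitosis list had median log2 shifts of -0.91 and -0.81 in the treated arrays, against -0.48 and -0.30 in the untreated, and this difference was not tested.

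Markers of cell types fit the label of the cultures. The 10 myotube markers had mean ranks between 95.8 and 97.3 on the 6 arrays, with Acta1 at 99.9 on each and Ckm between 91.4 and 97.7. The 6 markers of myoblasts and reserve cells had mean ranks between 87.0 and 88.2. These ranks do not show which cells of the pooled cultures carried the RNA. The 9 fibroblast markers had mean ranks of 64.8, 65.2 and 67.4 in the LIF experiment and of 63.3, 62.7 and 64.9 in the C26CM experiment, with 5 of 9 (55.6%) above both early ranks in both, 0 below and 2 in the background range on all arrays; their part in the higher values at 24 h was not tested. Markers of macrophages and leukocytes had mean ranks between 27.0 and 29.6, with 5 of 8 in the background range on all 6 arrays. Endothelium markers lay between 26.7 and 30.2, adipocyte markers between 27.7 and 29.4, epithelium markers between 39.5 and 41.5, and markers of neurons and Schwann cells between 39.0 and 44.0.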

How the data were processed

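Gene expression was measured with Affymetrix mouse gene 1.0 ST arrays. The table of log2 values, 1 per gene, was deposited by the authors, and RMA is named in the submitters' processing notes. No version, probe set definition or genome build is given in the sources used here. The values show rounding to 1 decimal in the LIF experiment and 2 in the C26CM experiment. A signed fold change score of untreated 8 h over 4 h, per the file headers of a table deposited by the authors, lay, after conversion to log2, within 0.15 of the log2 difference for 100% of genes and served as a check only. A further 12 columns of per-sample values were not used. The number of arrays limits the precision. Symbols were updated through RefSeq (GRCm38.p6): 20819 of 21187 genes matched, 1943 symbols were renamed and 15 genes had none.

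The values were turned into percentile ranks within each array, with mean ranks for ties, and all genes were kept. In R 4.3.3, limma 3.58.1 was fitted to the 6 untreated arrays (eBayes, trend on) with experiment as a block, 3 residual degrees of freedom and Benjamini-Hochberg adjustment over all genes at 0.05; the fit with an experiment by time term has 2. The experiment served as the replicate, and arrays of an experiment are paired by the labels. The background range lies under the level that 5% of 1288 olfactory and vomeronasal receptor genes of an array exceed. Log2 shifts were taken after quantile normalization. Tables were prepared with pandas 2.3.3.

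The genes named are the 15 per direction with the smallest p, the 10 per direction with the largest log2 shift outside the early range in both experiments, up to 6 per list with the largest shift, and markers. Genes in the background range on all 6 arrays were left out of the ranked parts, the 15 and the 10. A gene in that range on only some arrays could still be picked. The 3610 predicted, receptor and similar genes were also left out of the ranked parts and kept in counts. Some genes that this rule picks are not reported here. Map2k6, Cenpw, Sfrp4 and Zcchc10 are named from the 10 point rule after their values were seen. The arrays, the 34 pathway and 8 marker lists and the rule were chosen with earlier results of these data known, and p values measure only the spread between these samples. Motifs were searched on both strands. On simulated data with 200 shifted genes among 21187, the untreated fit recovered 57.0% of shifts of 10 points with 3 false calls and 87.5% of shifts of 20 points with 7. The simulated noise was independent between arrays, and each shifted gene had the same shift in both experiments. It held no change of scale at 24 h, unlike the real arrays, so these rates need not hold for them.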

Additional observations from a re-analysis of the deposited data

Results flagged for a closer look

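Limma's experiment by time term (adjusted p up to 0.05) called 1942 genes with the higher shift in the C26CM experiment and 2159 with the lower. Among the named genes, the difference in points, C26CM minus LIF experiment, was positive for Neto2 (26.51), Serpinb2 (25.4), Gjb2 (24.97), Car9 (21.55), Id3 (17.1), Dtl (15.81), Ube2t (12.01), Ddias (11.46), Orc1 (10.77), Prg4 (9.77), Tma7 (8.74) and Srm (8.67). Except for Car9, these genes were lower at 24 h in both experiments, and less so in the C26CM experiment. The difference was negative for Heyl (-15.8), Cox7b (-14.75), Mvd (-12.99), Cavin2 (-10.78), Mybpc2 (-10.11), Gnl3 (-8.26), Myh8 (-6.93), Sox8 (-5.95), Npm1 (-3.51) and Casq1 (-2.95). Of these, Cox7b, Gnl3 and Npm1 were lower at 24 h in both experiments, and by more in the C26CM experiment. The fit has 2 residual degrees of freedom, both from 4 h against 8 h, and each 24 h value is a single array, so a call does not separate the experiments from single arrays. Car9 had background values on all 3 arrays of the LIF experiment.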

How the results depend on the processing

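The count of genes past the adjusted p of 0.05 depended on the scale. It was 0 higher and 0 lower on ranks, and also after rounding to 1 decimal, without a variance trend, with robust eBayes, with 4 h and 8 h as separate levels and without the experiment (replicate) block. It was 120 higher and 168 lower on quantile-normalized log2 values, 764 and 663 on median-centred values, 96 and 142 on normal scores, 1 and 11 without the dimmest 25% of genes, 111 and 120 without the dimmest 50%, and 930 and 876 at an adjusted p of 0.10. Leaving out 1 array gave 0 to 2514 higher and 0 to 2512 lower genes, 2511 and 2512 without the LIF 24 h array and 2514 and 2373 without the C26CM 24 h array, when the contrast rests on 1 experiment. Genes called by the experiment by time term numbered 4101, and 2490 with median centring, 1569 without the dimmest 50% and 6797 at 0.10. The 10 point rule gave 7 upward and 38 downward, 2 and 16 at 2-fold after quantile normalization, 15 downward at 2-fold after median centring, 162 and 178 on normal scores, 14 and 76 without the dimmest 25%, 108 and 150 without the dimmest 50%, 333 and 436 at 5 points, 0 and 2 at 20 points, and 8 to 9 and 41 to 47 without an early array. Of 2116 values for 126 named genes under the alternatives, 1666 kept direction and side of the threshold, 446 passed it and 4 turned, each without a 24 h array: Myh8 (-0.36 to 6.57), Myog (-0.37 to 0.66), Heyl (-0.00 to 15.79) and Car9 (-3.48 to 18.07). Background signal limits the dim genes, and the rounding to 1 decimal limits small shifts in the LIF experiment. The comparison of list medians with 4 h alone was chosen after seeing the data.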
